A study of Mus musculus with 6 samples.

Results

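The ISG15 conjugation system was described in mouse cells that the study names vascular smooth muscle cells (VSMCs). In the body these are the contractile cells of the arterial wall. Its members were named by their established roles, with earlier results of these data known. They comprised 5 genes of the 54532 in the deposited table, namely Isg15, Uba7, Ube2l6, Herc6 and Usp18. All 5 passed the filter on low values, a mean of at least 0.5 FPKM (fragments per kilobase of gene length, scaled to library size). Gene expression was measured by RNA sequencing in 6 libraries, 3 labelled Ad-Con and 3 labelled Ad-PDK4. Both groups had received an adenoviral vector. It carried a control plasmid in cells of WT genotype in the Ad-Con group and an overexpression plasmid for pyruvate dehydrogenase kinase 4 in the Ad-PDK4 group. This enzyme (PDK4) sits in mitochondria and shuts off the pyruvate dehydrogenase complex. Per the study, the cells came from the abdominal aorta of mice and both groups were exposed to angiotensin II, so no library without the vector or the peptide was compared here. The comparison addressed how PDK4 overexpression altered gene expression in these cells.

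ISG15 is a small ubiquitin-like protein that is attached to other proteins by a cascade like that of ubiquitin. UBA7 is the E1 enzyme that activates ISG15, UBE2L6 is the E2 enzyme that carries it, HERC6 is the main E3 ligase that transfers it to substrates in the mouse, and USP18 is the protease that removes it. USP18 also binds the type I interferon receptor chain IFNAR2 and restrains signalling from it. The genes are known as interferon-stimulated genes, whose transcription is driven by the factor ISGF3, which holds STAT2 and IRF9, through the interferon-stimulated response element (ISRE).

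Library depth was even, from 17588942 to 21861872 reads assigned to genes, so that 1 read in a gene of 1 kb was worth 0.0453 to 0.0571 FPKM. The targeted gene went against the label. Pdk4 measured 9.50, 10.4 and 10.1 FPKM under the Ad-Con label against 7.67, 7.40 and 7.38 FPKM under the Ad-PDK4 label, and limma gave a log2 change of -0.42 ± 0.06 (SE) at an adjusted p of 0.00114, so each direction below is that of the label. Whether reads of the transgene were counted under mouse Pdk4 is not given in the sources used here. The labels do not say whether the libraries came from separate cultures, and p-values then measure only the spread between these libraries. Of 10 smooth muscle markers, Myh11 had at most 10 reads, Tagln at most 20 and Cnn1 at most 30 in any library. Acta2 was higher, at a mean of 78.0 FPKM under the Ad-Con label. It fell by 1.11 on the log2 scale under the Ad-PDK4 label (limma adjusted p = 5.28e-06). Most of these markers were thus low, and a contractile smooth muscle identity rests on the study's name and is not shown by these RNA levels.

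The promoter of Isg15 is shown because it alone of the 4 member promoters examined held ISRE words. RefSeq promoters on GRCm38.p6, spanning 250 bases before to 50 after the transcript start, were matched for 4 of the 5 genes (Isg15, Uba7, Ube2l6 and Herc6). The ISRE word, 2 copies of GAAA separated by any 2 bases, was searched on both strands and occurred 3 times in the Isg15 promoter, as overlapping copies at -78 to -69, -72 to -63 and -66 to -57 from the start. The stretch at chr4:156200835-156200936 (GRCm38.p6, minus strand) is given 5′ to 3′, with the run of overlapping words in capitals:
Isg15 promoter: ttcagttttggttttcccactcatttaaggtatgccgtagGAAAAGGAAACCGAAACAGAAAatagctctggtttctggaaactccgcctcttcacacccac
The same word was found in 3.44% of all 32851 promoters and in 5 of 15 promoters of the interferon-stimulated reference genes (20 genes such as Ifit1, Mx1 and Irf7). That list was written from general knowledge, with earlier results of these data known. The word was not found in the promoter windows of Uba7, Ube2l6 or Herc6. The gamma-activated sequence TTCNNNGAA, which reads the same on both strands and whose letters do not contain the ISRE word, was found in 8.30% of all promoters and in none of the 4. A match is a description of the letters and not of binding.

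All 5 genes rose under the Ad-PDK4 label, by 4.60-fold to 29.5-fold as a ratio of mean FPKM. The modifier gene Isg15 rose most and Uba7 least. All 5 passed the limits of adjusted p 0.05 and 2-fold change in limma, a rule that called 3.95% of the 13423 tested genes higher and 2.68% lower. No member overlapped between the groups, as was so for 27.8% of all tested genes in that direction and 26.5% in the other. The median log2 fold change of the 5 was 2.47, beside -0.003 over all tested genes. In bulk RNA, more cells expressing a gene and more RNA per cell cannot be told apart.

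Isg15 (ENSMUSG00000035692, chr4:156199424-156200818, minus strand, GRCm38) has a single annotated transcript of 2 exons and 756 bases. Its level was 7.28, 8.74 and 11.2 FPKM under the Ad-Con label against 259, 268 and 276 FPKM under the Ad-PDK4 label, from 112 to 154 and from 3544 to 4609 reads. Every Ad-PDK4 library was thus far above every Ad-Con library, and the spread was wider among the Ad-Con libraries, with a coefficient of variation of 22.0% against 3.20%. The mean moved from 9.08 ± 2.001 to 268 ± 8.55 FPKM (SD, n = 3), and limma gave a log2 change of 4.89 ± 0.15 (SE) at an adjusted p of 1.46e-06. This was rank 29 among the log2 fold changes of all tested genes. By FPKM, Isg15 moved from rank 5389 to rank 133 of the tested genes, counted from the highest.

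Uba7 (ENSMUSG00000032596, chr9:107975505-107984060, plus strand), the E1 enzyme of the pathway, measured 3.77, 3.74 and 3.95 FPKM under the Ad-Con label. It measured 16.9, 18.2 and 17.5 FPKM under the Ad-PDK4 label. Both groups were tight, and the highest Ad-Con library lay well under the lowest Ad-PDK4 library. The mean moved from 3.82 ± 0.115 to 17.6 ± 0.649 FPKM (SD, n = 3), and limma gave a log2 change of 2.17 ± 0.06 (SE) at an adjusted p of 1.69e-07.

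Ube2l6 (ENSMUSG00000027078, chr2:84798828-84810335, plus strand), the E2 enzyme, measured 20.8, 19.6 and 19.6 FPKM under the Ad-Con label and was the highest of the 5 genes there by FPKM. In the libraries labelled Ad-PDK4 it measured 105, 106 and 116 FPKM. The groups were separated by a wide gap, with replicate 3 the highest of the Ad-PDK4 libraries. The mean moved from 20.01 ± 0.686 to 109 ± 6.15 FPKM (SD, n = 3), and limma gave a log2 change of 2.44 ± 0.06 (SE) at an adjusted p of 9.61e-08.

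Herc6 (ENSMUSG00000029798, chr6:57581000-57664632, plus strand), the E3 ligase, was the lowest of the 5 by FPKM in both groups. It measured 0.783, 0.748 and 0.718 FPKM under the Ad-Con label, from 121 to 148 reads, and 6.69, 6.32 and 8.51 FPKM under the Ad-PDK4 label, from 1028 to 1746 reads. Replicate 3 stood above the other two Ad-PDK4 libraries, and the groups did not overlap. The mean moved from 0.7495 ± 0.0322 to 7.17 ± 1.17 FPKM (SD, n = 3), a ratio of 9.57, and limma gave a log2 change of 3.09 ± 0.13 (SE) at an adjusted p of 1.48e-06. Since Herc6 was low in the Ad-Con libraries, its log2 fold change depended on the pseudocount and was 2.21 with a pseudocount of 1, the lowest of 16 alternatives in processing (other pseudocounts, filters, scalings or fits, or a library left out).

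Usp18 (ENSMUSG00000030107, chr6:121245906-121270917, plus strand), the protease that removes ISG15, measured 15.1, 15.7 and 16.4 FPKM under the Ad-Con label. It measured 86.8, 90.3 and 85.9 FPKM under the Ad-PDK4 label. The libraries of each group lay close together and the groups were far apart. The mean moved from 15.7 ± 0.621 to 87.6 ± 2.33 FPKM (SD, n = 3), and limma gave a log2 change of 2.47 ± 0.05 (SE) at an adjusted p of 6.58e-08, so the removing enzyme rose together with the attaching enzymes.

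**Figure D1:**
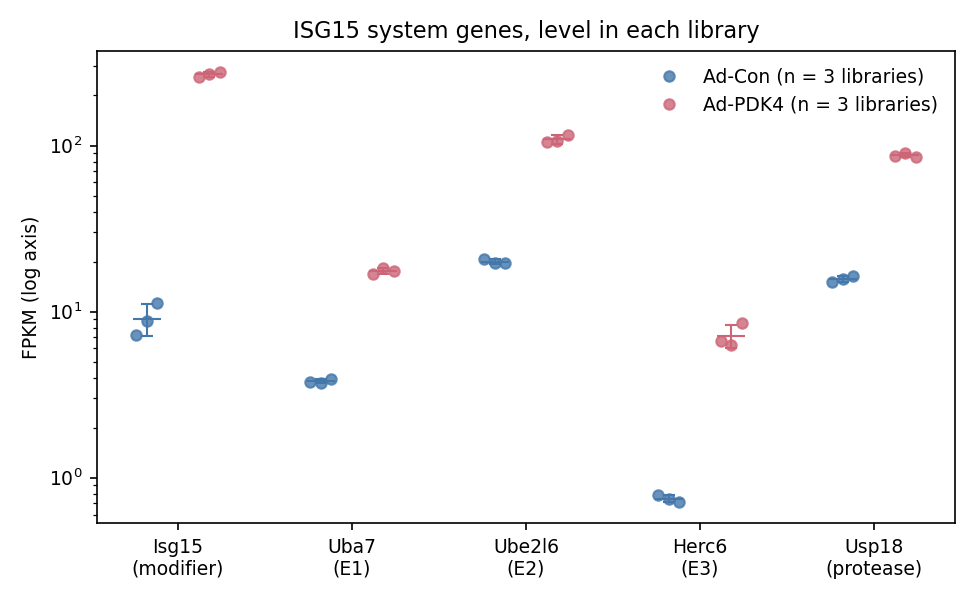
FPKM of the 5 ISG15 system genes on a log axis in the 3 libraries labelled Ad-Con (blue) and the 3 labelled Ad-PDK4 (red). Points are libraries, and bars are the mean ± SD. Every Ad-PDK4 point lies above every Ad-Con point of the same gene, and Isg15 moves from 9.08 to 268 FPKM.

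The order of the 5 genes by FPKM, which is per gene length, differed between the groups. In the libraries labelled Ad-Con it ran Ube2l6, Usp18, Isg15, Uba7 and Herc6. In those labelled Ad-PDK4 it ran Isg15, Ube2l6, Usp18, Uba7 and Herc6. Within each group, no library of a gene overlapped the libraries of its neighbour in the order, the closest pair by ratio being Usp18 at up to 90.3 FPKM and Ube2l6 from 105 FPKM in the Ad-PDK4 group. This order depends on the gene lengths used, 2790 bases for Usp18 and 1996 for Ube2l6, whose longest transcripts have 1771 and 1560 bases. By reads assigned to the gene, Usp18 lay above Ube2l6 in every library.

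The log2 fold change of the modifier exceeded that of each enzyme, and ratios within a library show this without regard to how libraries were scaled. The ratio of Isg15 to Ube2l6 was 0.350, 0.446 and 0.573 under the Ad-Con label against 2.47, 2.53 and 2.38 under the Ad-PDK4 label. Thus, by FPKM, Isg15 lay below its E2 enzyme in every Ad-Con library and above it in every Ad-PDK4 library. The ratio of Isg15 to Usp18 moved likewise from 0.482, 0.557 and 0.687 to 2.98, 2.97 and 3.21. The ratio of Isg15 to Uba7 moved from 1.93, 2.34 and 2.85 to 15.3, 14.7 and 15.7. For Isg15 and Herc6, the gene that rose most after it, the ratio moved from 9.30, 11.7 and 15.6 to 38.7, 42.4 and 32.4. On the log2 scale with a pseudocount of 0.1, these 4 ratios differed between the groups by 2.45, 2.41, 2.71 and 1.80.

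Among the enzymes the differences were smaller. The log2 ratio of Herc6 was higher in the Ad-PDK4 group by 0.91 to Uba7, by 0.65 to Ube2l6 and by 0.61 to Usp18, and the latter pair of values changed sign with a pseudocount of 1, to -0.17 and -0.19. The log2 ratios of Usp18 and Ube2l6 to Uba7 were higher by 0.30 and 0.26. The ratio of Usp18 to Ube2l6 overlapped between the groups, with a log2 difference of 0.03 (exact two-sided permutation test, p = 0.6). For the other 9 of the 10 pairs the exact two-sided permutation test gave p = 0.1 (0.111 after Benjamini-Hochberg adjustment over 10 pairs), which is the smallest that 3 against 3 libraries allow.

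**Figure D2:**
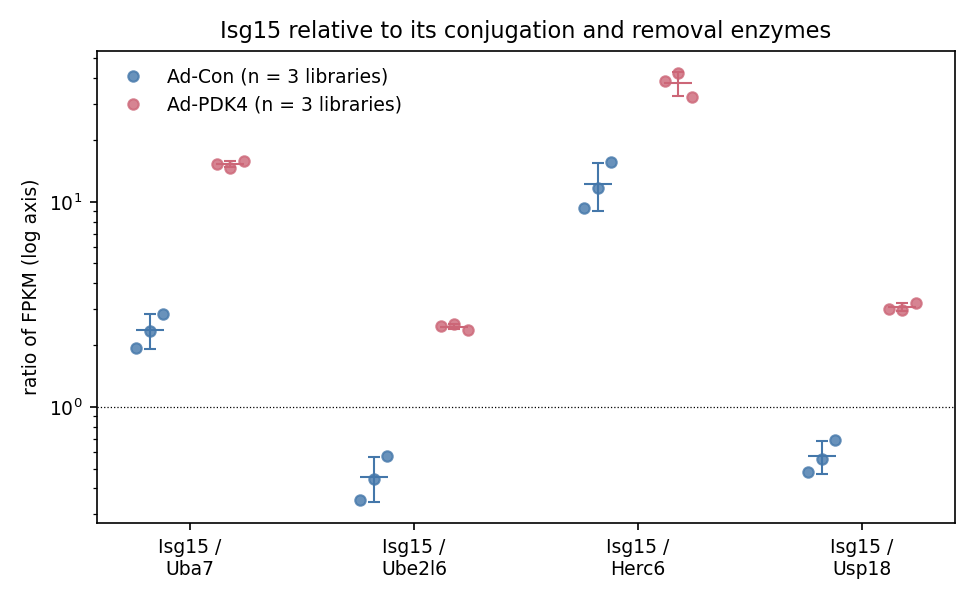
Ratio of Isg15 FPKM to the FPKM of each of its 4 enzymes, on a log axis, in the 3 libraries labelled Ad-Con (blue) and the 3 labelled Ad-PDK4 (red). Points are libraries, bars are the mean ± SD, and the dotted line marks a ratio of 1. The ratios to Ube2l6 and Usp18 cross that line, from at most 0.687 to at least 2.38.

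The 5 genes were then set against the other members of their enzyme families, which serve ubiquitin and other modifiers. Each stood above every other tested gene of its family in log2 fold change. By the adjusted p alone, 21.8% of all tested genes were called higher and 20.8% lower. Of 8 other E1 enzymes reported here, 1 rose and none fell, namely Uba6 at 0.30 (limma adjusted p = 0.0262, up to 0.0876 over the alternatives), while Uba1, the main E1 enzyme of ubiquitin, stood at 0.02 in log2 fold change, with an adjusted p of 0.758 in limma. Of 34 tested E2 enzymes, 7 rose and 5 fell, and none passed a fold change of 2. Ube2f, an E2 enzyme for NEDD8, had the largest rise there at 0.51, and Atg10, an E2-like enzyme of autophagy, the largest fall at -0.67. Ube2l3, the closest relative of Ube2l6, stood at -0.14 in log2 fold change, with an adjusted p of 0.124 in limma.

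None of the other 4 HERC ligases passed the test as higher. Herc4 stood at -0.34 in log2 fold change, with an adjusted p of 0.0484 in limma, which was past the test in 9 of 17 alternatives and reached 0.15 in the others. Herc1, Herc3 and Herc2 had log2 fold changes of -0.19, -0.13 and 0.06 and did not pass it, although Herc1 did with limma-voom (adjusted p = 0.0172). Of 43 tested USP proteases, 16 rose and 4 fell, beside 21.8% and 20.8% of all tested genes. The only one past a fold change of 2 was Usp25, at 8.20 ± 0.334 and 16.9 ± 1.07 FPKM (SD, n = 3) and 1.03 in log2 terms (adjusted p of 1.50e-05 in limma), a value so near the limit that it fell under it with a pseudocount of 1, with quantile normalization and without Ad-PDK4 replicate 3. The largest fall past the test was that of Usp3, at -0.49.

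Among 18 other ubiquitin and ubiquitin-like genes, 7 rose and 4 fell, beside 21.8% and 20.8% of all tested genes. Ubd, which encodes the ubiquitin-like modifier FAT10, rose from 0.389 ± 0.264 to 4.10 ± 0.700 FPKM (SD, n = 3), by 3.23 in log2 terms (adjusted p of 4.14e-04 in limma). It had only 13, 3 and 5 reads in the Ad-Con group, and its log2 fold change ranged from 1.89 to 3.64 over the alternatives. Sumo2 rose by 2.38 in log2 terms (adjusted p of 0.00447 in limma). Its value is uncertain, since 39.3% of the bases of its longest transcript lie in 75-base words shared with transcripts of 11 other genes. Its 3 Ad-PDK4 libraries also ranged from 17.5 to 41.8 FPKM.

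**Figure D3:**
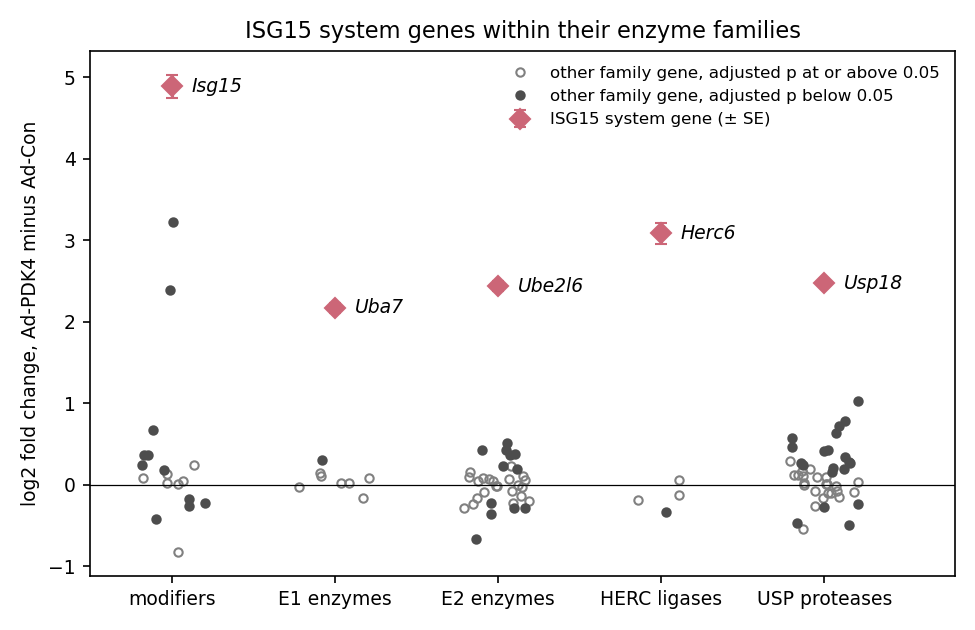
Log2 fold change (libraries labelled Ad-PDK4 minus Ad-Con, limma on log2(FPKM + 0.1)) of the tested genes of 5 families. Diamonds are the ISG15 system genes with their SE, filled circles other genes with an adjusted p below 0.05 and open circles the rest. Each diamond, from 2.17 for Uba7 to 4.89 for Isg15, lies above the other genes of its family, and horizontal position within a family is arbitrary.

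The share of its family's summed FPKM held by each gene was higher under the Ad-PDK4 label. Ube2l6 held 2.44% ± 0.0873 of the E2 total under the Ad-Con label, as the gene ranked 12 of 39, and 12.0% ± 0.435 under the Ad-PDK4 label, where it ranked 1 by mean (SD, n = 3). Its 105, 106 and 116 FPKM there overlapped those of Ube2h, at 106, 110.5 and 106 FPKM, and Ube2l6 was the higher of the pair only in replicate 3. Usp18 moved from 4.03% ± 0.194 and rank 7 of the 50 USP proteases to 17.4% ± 0.189 and rank 1. Herc6 moved from 3.43% ± 0.0380, the lowest of the 5 HERC ligases, to 26.6% ± 3.36 and rank 2.

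Uba7 moved from 1.68% ± 0.0326, the lowest of the 10 E1 genes, to 7.11% ± 0.222 and rank 3, and Isg15 from 0.356% ± 0.0921 and rank 17 of 19 modifier genes to 9.12% ± 0.624 and rank 4. The modifier total is uncertain, since Ubb and Rps27a share 68.8% and 49.0% of the bases of their longest transcripts with other genes in 75-base words. Rps27a also ranged from 74.8 to 261 FPKM among the Ad-Con libraries. The shares did not overlap between groups for any of the 5 genes, and the exact two-sided permutation test gave p = 0.1 for each, the smallest it can give here. As shares of recovered reads, which weight long genes more, the differences were smaller for Isg15 (4.12 in place of 8.76 percentage points), Ube2l6 (5.03 in place of 9.56), Usp18 (6.07 in place of 13.3) and Herc6 (16.0 in place of 23.2), and larger for Uba7 (7.31 in place of 5.43). The summed level of the other E2 enzymes overlapped between the groups, at 788 to 810 FPKM under the Ad-Con label against 790 to 812 FPKM under the Ad-PDK4 label. That of the other USP proteases was 372 to 380 FPKM and 414 to 424 FPKM, and that of the other HERC ligases 20.48 to 21.8 FPKM and 19.4 to 19.9 FPKM.

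**Figure D4:**
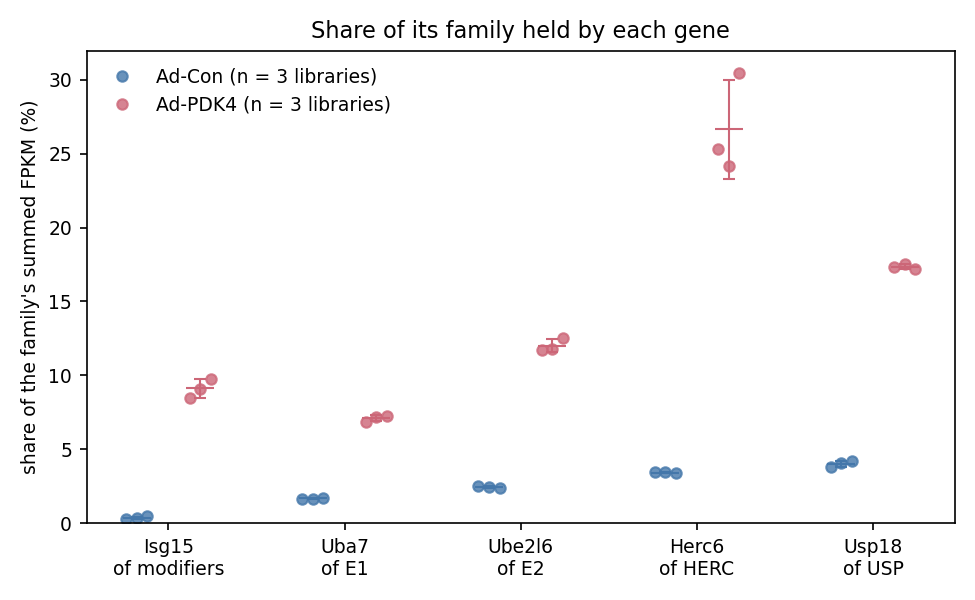
Share (in percent) of the summed FPKM of its family held by each ISG15 system gene, in the 3 libraries labelled Ad-Con (blue) and the 3 labelled Ad-PDK4 (red). Points are libraries and bars are the mean ± SD. All 5 shares are higher in the Ad-PDK4 group, with the widest spread for Herc6 at 26.6% ± 3.36.

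Of 11 other genes linked to ISG15, 10 were tested and Trim25 was the only one to rise, beside 21.8% of all tested genes. TRIM25, an E3 ligase for ubiquitin and ISG15, was at 10.0, 9.97 and 11.6 FPKM under the Ad-Con label against 33.6, 34.0 and 32.6 FPKM under the Ad-PDK4 label. The groups were far apart (log2 fold change 1.66 ± 0.07, SE, with an adjusted p of 1.48e-06 in limma). Arih1, another ligase described for ISG15, stood at 0.09 in log2 fold change, with an adjusted p of 0.209 in limma. None of the proteases described as able to cut ISG15 besides USP18 (Usp2, Usp5, Usp13, Usp14, Usp16 and Usp21) passed the test, with log2 fold changes from -0.54 for Usp2 to 0.19 for Usp21. Itgb2, which encodes a chain of the integrin that binds free ISG15, stood at -0.33 in log2 fold change, with an adjusted p of 0.00967 in limma. Itgal, which encodes the other chain, was not tested, with at most 2 reads in any library.

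Of 6 genes reported here from the interferon receptor arm to which USP18 binds, 3 rose and none fell. By the same adjusted p, 21.8% of all tested genes were called higher and 20.8% lower. The receptor chain Ifnar2, the partner of USP18, was at 9.42, 9.46 and 9.11 FPKM under the Ad-Con label against 21.7, 21.5 and 22.4 FPKM under the Ad-PDK4 label. It thus rose (log2 fold change 1.22 ± 0.05, SE, with an adjusted p of 1.45e-06 in limma), while the other chain Ifnar1 had one of 0.04 (limma adjusted p = 0.643). Of the ISGF3 genes, Stat2 rose by 2.62 and Irf9 by 1.58 on the log2 scale. The kinases Jak1 and Tyk2 had log2 fold changes of 0.10 and 0.20 and did not pass the test. No type I, II or III interferon gene was tested, since 17 of 20 were at 0 in all libraries. Ifnb1 had 0 reads under the Ad-Con label against 7, 5 and 5 reads under the Ad-PDK4 label, at least 1.85-fold higher against a floor of 3 reads per library.

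Of 10 genes reported here whose proteins have been described as carrying ISG15, 7 rose and none fell, and 5 passed a fold change of 2. Of all tested genes, 21.8% were called higher and 20.8% lower by the adjusted p, and 3.95% were higher past both limits. Those 5 are themselves known as interferon-stimulated genes, with Ifit1 and Mx1 also in the reference list, namely the RNA-binding Ifit1, the antiviral GTPase Mx1, the RNA sensors Ifih1 and Ddx58 and the kinase Eif2ak2 (PKR), with log2 fold changes of 5.05, 3.24, 2.77, 1.82 and 1.51. Mx1 had only 6, 11 and 11 reads in the Ad-Con group, and its log2 fold change ranged from 1.44 to 3.98 over the alternatives. Ube2e1 and Ube2n rose by 0.37 and 0.20, of which Ube2n was past the test in 10 of 17 alternatives. Irf3, Eif4e2 and Mb21d1 (cGAS) had log2 fold changes of 0.02, 0.04 and 0.34 and did not pass it. Conjugation of ISG15 to any of these proteins was not measured.

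**Figure D5:**
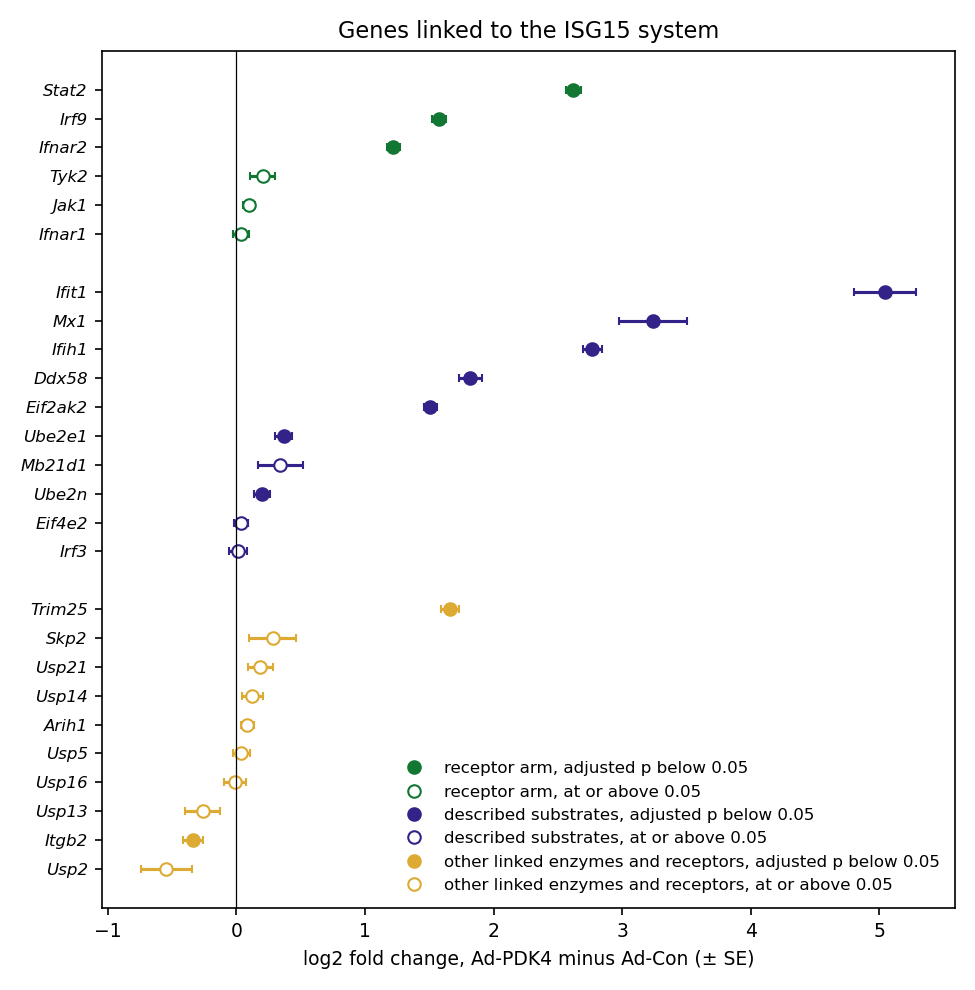
Log2 fold change ± SE (libraries labelled Ad-PDK4 minus Ad-Con, limma on log2(FPKM + 0.1)) of genes linked to the ISG15 system, in 3 lists. Filled points have an adjusted p below 0.05 and open points do not. Trim25 at 1.66 stands apart from the other linked enzymes and receptors.

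Beside the 20 interferon-stimulated reference genes, all of which rose (median log2 fold change 3.33, range 1.88 to 6.51), Isg15 was exceeded by 6, Herc6 by 11, and Usp18, Ube2l6 and Uba7 by 15 each. Isg15 shared a trait with them in the Ad-Con group. It was lowest in replicate 1 and highest in replicate 3, as were Usp18 and 11 of the 20 reference genes, beside 14.9% of all tested genes. Only 2 of the 5 members thus showed this order. Herc6 ran the other way, at 0.783, 0.748 and 0.718 FPKM, and Ube2l6 was highest in replicate 1. The genes with the most similar profiles were found by the root-mean-square difference of log2(FPKM + 0.1) minus the Ad-Con mean over the 6 libraries. For Isg15 they were Irf7, Phf11d and Ifit1, at 0.137, 0.153 and 0.187. For Usp18 they were Rnf213, Apol9a and Ackr3, at 0.0287, 0.0455 and 0.0678. Ube2l6 was nearest to Usp18 itself, A230050P20Rik and Apol9a, at 0.0884, 0.0940 and 0.0944. Uba7 was nearest to Vnn1, Fgf10 and Lgals3bp, at 0.0287, 0.0385 and 0.0701. Herc6 was nearest to Parp14, Cebpd and Casp4, at 0.135, 0.147 and 0.151. By the same measure Isg15 lay at 1.30 to 1.93 from the other members. With 2 groups, this measure mostly follows the difference in log2 fold change, so the nearest genes are those of nearly equal change. For example, Vnn1 and Fgf10 had log2 fold changes of 2.21 and 2.21 beside 2.17 for Uba7. The profiles thus give no evidence of shared control beyond the fold changes.

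The 5 genes lie on 4 chromosomes, with Herc6 and Usp18 both on chromosome 6. Of their 10 nearest tested neighbours, 5 rose, 1 fell and 4 did not pass the test. Over all tested genes, 21.8% were called higher and 20.8% lower by the adjusted p. The 4 were Traip, Timm10, Ppm1k and M6pr, at 3234, 16661, 45531 and 1037802 bases from Uba7, Ube2l6, Herc6 and Usp18. Of the risers, Tuba8, beside Usp18, had an adjusted p of 0.0297 in limma that reached 0.107 when a library was left out. Both neighbours of Isg15 rose, Agrn at a distance of 1935 bases by 1.70 and AW011738 at 2485 bases by 2.97 on the log2 scale (limma adjusted p = 4.09e-05 and 9.58e-05). AW011738 had only 14, 15 and 6 reads in the Ad-Con group, and its log2 fold change ranged from 1.65 to 3.30 over the alternatives. Inka1, whose end lies 162 bases past the end of Uba7 on the other strand, was covered by 42, 46 and 47 reads in the Ad-Con group against 132, 113 and 147 in the Ad-PDK4 group, and rose by 1.45 (limma adjusted p = 3.99e-05). Serping1, at 23383 bases from Ube2l6, encodes an inhibitor of complement C1 and rose by 1.92 (limma adjusted p = 1.50e-07). Agrn lies on the strand of Isg15, past its end. Inka1 lies on the strand opposite to Uba7, and whether counting used strand is not given in the sources used here, so reads running past the end of Uba7 cannot be told apart from those of Inka1.

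Sequence shared with other genes was counted, since it can split or drop reads. No 75-base word of Isg15 occurs in another gene's transcripts. For the other members, the share of bases of the longest transcript lying in words shared with another gene, on either strand, was counted. For Herc6 it was 26.7%, shared with the overlapping Gm45193, which had 0 reads in every library. For Uba7 and Usp18 it was 5.47% and 7.11%, shared with the overlapping Gm20661 and Gm44148. These had at most 3 reads and at most 1 read in any library. For Ube2l6 it was 15.8%, in 2 other genes.

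Markers of other cell types were read beside these values. Of 12 macrophage markers, 6 were at 0 in every library, among them Ptprc, Tyrobp and C1qa, and their summed level was 15.0 to 18.1 FPKM under the Ad-Con label against 6.08 to 7.57 FPKM under the Ad-PDK4 label. That sum was mostly Cd68, at a mean of 14.2 and 4.24 FPKM. Csf1r was at 0.258 and 0.640 FPKM and Lyz2 at 1.51 and 1.98 FPKM, both higher under the Ad-PDK4 label without overlap. Such a lack of overlap held for 27.8% of all tested genes in that direction. Lyz2 did not pass the test (limma adjusted p = 0.0791), and Csf1r was too low to be tested. Of 6 plasmacytoid dendritic cell markers Siglech was at 0, and without Bst2, itself an interferon-stimulated gene, their sum was 7.43 to 7.93 FPKM and 6.73 to 8.01 FPKM. Most of it was Tcf4, at a mean of 7.58 and 6.56 FPKM, while Spib had 7, 3 and 10 reads in the Ad-Con group against 42, 31 and 62 in the Ad-PDK4 group. Of 8 lymphocyte markers 6 were at 0, and the sum was at most 0.265 FPKM in any library. Of 8 endothelial markers Tie1 and Emcn were at 0, and the sum moved from 0.634 to 0.827 FPKM up to 0.924 to 1.18 FPKM. Most of it was Kdr, at a mean of 0.536 and 0.919 FPKM, which did not pass the test (limma adjusted p = 0.0645). Pecam1 was lower by mean under the Ad-PDK4 label, at 0.101 and 0.0651 FPKM, as was Vwf, at 0.0585 and 0.0327 FPKM, both with overlap. The summed level of 10 smooth muscle markers was 87.9 to 89.6 FPKM under the Ad-Con label against 43.4 to 48.2 FPKM under the Ad-PDK4 label, and that of 8 fibroblast markers 1727 to 1882 FPKM and 907 to 995 FPKM, so both sums moved with the groups. The first was mostly Acta2, while Smtn (log2 fold change 0.02) and Lmod1 (-0.29) did not pass the test. Among the untested low smooth muscle markers, Mylk moved from 0.756 to 0.123 FPKM, Cnn1 from 0.466 to 0.247 and Des from 0.186 to 0.0468, without overlap. Myh11, Tagln, Myocd and Synpo2 overlapped between the groups. Of the fibroblast markers, Col1a1, Col1a2, Col3a1, Lum and Dpt fell. Dcn rose by 0.83 on the log2 scale (limma adjusted p = 4.04e-04) and Pdgfra stood at -0.05. The part of these markers in the rise of the ISG15 system was not tested.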

How the data were processed

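RNA sequencing was analysed in 6 libraries, 3 per group, grouped by the treatment label. The authors deposited FPKM per gene and library, with no pooling, and gene lengths in bases. The submitters' processing notes name CASAVA 1.8, fastp, HISAT2 2.0.5, featureCounts 1.5.0-p3, DESeq2 1.20.0 and GRCm39, while 98.3% of the gene identifiers found in GENCODE M21 had their GRCm38 coordinates, so positions are given on GRCm38. The labels and the study's methods name different library kits.

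FPKM times length gave whole reads for 100% of values above 0 (tolerance 0.01 reads). These reads gave the depth and an alternative fit. The values log2(FPKM + 0.1) were compared with limma 3.58.1 in R 4.3.3 (moderation with trend and robust, no covariate), with Benjamini-Hochberg adjustment over the 13423 genes with a mean of at least 0.5 FPKM. Fold changes on this scale understate those of low genes. The fit was tested on simulated data. Family shares and member ratios were compared by exact two-sided permutation tests in SciPy 1.17.1.

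The members and lists were chosen with earlier results of these data known. Of the listed genes, 3 are not reported here and are left out of the list counts. Genes named were the members, Pdk4, the linked, receptor, substrate and HERC lists, up to 3 extremes of the other lists, the 3 nearest profiles, chromosomal neighbours and family comparators (Uba1, Ube2l3). Ube2h, Ifnb1 and single marker genes were named after their values were seen. Alternatives were other pseudocounts, filters, scalings and moderation, the replicate block, limma-voom and leaving out each library. Same-numbered libraries showed no visible shared deviation (correlations -0.05, -0.03 and -0.001, beside -0.02 to 0.06 for other pairs). This cannot show whether the libraries were paired by culture.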

Additional observations from a re-analysis of the deposited data

How the results depend on the processing

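The 5 ISG15 system genes kept their direction and stayed past an adjusted p of 0.05 and a fold change of 2 in all alternatives that tested them (17 each, 16 for Herc6, whose mean lies under a minimum of 5 FPKM). Their log2 fold changes ranged from 4.74 to 5.05 for Isg15, 1.95 to 2.23 for Uba7, 2.39 to 2.48 for Ube2l6, 2.21 to 3.25 for Herc6 and 2.41 to 2.52 for Usp18. With the replicate block, the log2 fold change of Isg15 was 4.89 as without it and no call on a member changed. All tested genes past both limits numbered 530 higher and 360 lower, but 258 and 114 with a minimum mean of 5 FPKM, where fewer genes are tested, and 153 lower with a pseudocount of 1, which shrinks low genes by construction. Other ubiquitin-like modifiers past both limits numbered 2 higher and 0 lower, 1 higher with a minimum of 5 FPKM, and 0 to 1 lower when a library was left out (1 without Ad-Con replicate 3; the cause was not tested). Other E2 enzymes numbered 1 lower with no filter and 0 otherwise. The USP proteases fell from 1 higher to 0 with a pseudocount of 1, with quantile normalization and without Ad-PDK4 replicate 3 (0 to 1 over the libraries left out).

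Shares of recovered reads differed by 4.12 percentage points for Isg15, 7.31 for Uba7, 5.03 for Ube2l6, 16.0 for Herc6 and 6.07 for Usp18. With a pseudocount of 1 the log2 ratios to Herc6 and Uba7, the lowest genes, moved to 2.54 (Isg15 over Herc6), -0.19 (Herc6 over Usp18), -0.17 (Herc6 over Ube2l6), 0.27 (Herc6 over Uba7), 0.46 (Usp18 over Uba7) and 0.44 (Ube2l6 over Uba7). Usp18 over Ube2l6 ranged from -0.022 to 0.095 over the libraries left out, was lowest without Ad-Con replicate 1, and was -0.00628 when Ad-PDK4 replicate 2 was dropped. Among genes near 0, quantile normalization turned Ifnar1 to -0.029, Herc2 to -0.0015, Irf3 to -0.051 and Eif4e2 to -0.032. With single libraries left out, Irf3 ranged from -0.032 to 0.052 and Uba1 from -0.0084 to 0.060. Calls near the threshold were lost without single libraries for Herc4 (Ad-Con 1 or 3, Ad-PDK4 1 or 2), Tuba8 (the same 4), Uba6 (Ad-Con 1 or 2, Ad-PDK4 1 or 3) and Ube2n (the same as Uba6), with adjusted p up to 0.15, 0.107, 0.0876 and 0.106 over their alternatives. Tyk2 passed with the replicate block and with limma-voom (adjusted p down to 0.0405), Jak1 when rescaled to TPM (0.0465), Herc1 with limma-voom (0.0172), and Ube2l3 with quantile normalization and without Ad-PDK4 replicate 3. At this depth no interferon gene reached the filter on low values.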
